A study of Rattus norvegicus with 16 samples.

Results

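The genes described here are 39 markers of T cells and natural killer (NK) cells in kidney cortex of the rat, measured by RNA sequencing in 16 libraries. They were taken from a list of symbols, and all 39 were found among the 32623 genes of the deposited count table. Of these, 36 had at least 1 count in some library, and 27 passed the low-count filter and were tested. The libraries came from untreated old males, young males, old females and young females, with 4 libraries in each group. All 16 libraries carried the same genotype label, "Homo", which the labels do not explain; the labels give no strain and no ages other than young and old. The series title names the cGAS-STING pathway and diabetic kidney disease, but no library is labelled as diabetic, so the comparisons are of age and of sex. The labels do not say that the libraries of a group came from separate animals, and a p-value then speaks only of the spread between libraries, which may be technical. Library names begin with DS or OP: all young libraries, old male 4 and old females 3 and 4 carry DS, and the other old libraries carry OP, so prefix and age are partly tied.

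T cells recognise peptides through a T cell receptor, which signals through the CD3 chains and CD247, the kinases Lck and Zap70 and the adaptor Lat. CD4 marks helper cells, although in rats monocytes and macrophages also carry CD4. CD8 marks cytotoxic cells, which kill with perforin and granzymes, as NK cells do. Regulatory T cells depend on the transcription factor Foxp3, and checkpoint receptors such as PD-1 (Pdcd1), Lag3 and Tigit restrain activated cells. In kidney, T cells reside in small numbers between the tubules and are known to accumulate with age and in nephritis. In bulk tissue, more cells of a type and more RNA per cell cannot be told apart.

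Promoter sequences are given for 4 members: Cd3g and Cd3d, neighbours with the largest fold differences between old and young males among the receptor chains, and Lat and Prf1, whose promoters hold every motif searched. The sequences are from RefSeq on build GRCr8, cover 250 bases before to 50 bases after the start, and are written on the gene's own strand. Capitals mark the ETS motif AGGAAG, the RUNX motif TGTGGT and the E-protein motif CACCTG, searched on both strands, so that a motif's reverse complement is marked too. Cd3g (ENSRNOG00000015945) lies at chr8:54183869-54184168 on the minus strand and Cd3d (ENSRNOG00000015994) at chr8:54185269-54185568 on the plus strand. Lat (ENSRNOG00000017429) lies at chr1:190372087-190372386 on the minus strand and Prf1 (ENSRNOG00000000562) at chr20:29788790-29789089 on the plus strand.
Cd3g: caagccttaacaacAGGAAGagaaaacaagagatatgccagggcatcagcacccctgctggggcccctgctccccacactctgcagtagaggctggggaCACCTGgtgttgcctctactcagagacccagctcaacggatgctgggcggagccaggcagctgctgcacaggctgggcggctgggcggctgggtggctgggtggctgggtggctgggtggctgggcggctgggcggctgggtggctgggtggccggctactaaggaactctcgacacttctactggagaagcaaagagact
Cd3d: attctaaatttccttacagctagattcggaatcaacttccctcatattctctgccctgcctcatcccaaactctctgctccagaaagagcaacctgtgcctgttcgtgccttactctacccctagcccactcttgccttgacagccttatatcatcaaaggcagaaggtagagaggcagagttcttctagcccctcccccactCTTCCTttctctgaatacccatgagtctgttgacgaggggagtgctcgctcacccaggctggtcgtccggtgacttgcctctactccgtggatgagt
Lat: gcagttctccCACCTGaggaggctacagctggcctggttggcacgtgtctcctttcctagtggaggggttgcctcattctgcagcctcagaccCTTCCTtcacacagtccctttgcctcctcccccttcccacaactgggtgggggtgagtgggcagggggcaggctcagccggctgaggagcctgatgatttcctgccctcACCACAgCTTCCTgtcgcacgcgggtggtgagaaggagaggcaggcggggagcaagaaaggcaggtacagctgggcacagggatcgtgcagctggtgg
Prf1: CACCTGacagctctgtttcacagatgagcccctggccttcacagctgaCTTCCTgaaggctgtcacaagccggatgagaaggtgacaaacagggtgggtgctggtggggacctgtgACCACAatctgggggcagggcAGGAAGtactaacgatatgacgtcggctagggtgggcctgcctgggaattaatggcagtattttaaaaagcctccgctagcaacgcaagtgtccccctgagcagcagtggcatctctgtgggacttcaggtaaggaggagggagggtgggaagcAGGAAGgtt
Of the members, 30 of 39 were found in the promoter table, with 31 windows because Lck has 2. The ETS motif was in 16 windows (51.6%), against 34.5% of all 33469 rat promoters in the table. The RUNX motif was in 14 windows (45.2%), against 17.3% of all promoters. The E-protein motif was in 11 windows (35.5%), against 18.8% of all promoters. The promoters of Lat, Lck and Prf1 held all 3 motifs, which is 9.68% of the windows, against 1.29% of all promoters. A match describes these letters and is not a binding site.

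Old males had higher levels of most tested members than young males, across receptor, surface, helper, cytotoxic and NK receptor genes. Cd3g was 8.03-fold higher, Lck 6.63-fold, Cd8a 4.73-fold, Cd4 3.68-fold and Klrk1 3.01-fold. In edgeR's quasi-likelihood test with Benjamini-Hochberg adjustment over 14390 genes, 23 members were higher, none was lower and 4 did not pass (Skap1, Cd28, Gata3 and Eomes), while 25.3% of all tested genes were higher and 24.6% were lower. No member was lower with DESeq2 either, and all 23 members with an unadjusted p under 0.05 were among those called higher. In all 23, every old male library lay above every young male library, a separation that 23.7% of all tested genes showed. The filter bears on these counts, because 11 of the 27 passed only with the old male libraries present and so had to be high there. These were Cd3d, Cd3e, Cd247, Zap70, Cd2, Cd5, Cd27, Cd69, Tbx21, Cd8b and Gzmk. Their calls, and the counts by role below that include them, carry this limit. Of the 16 that pass without old males, 12 were higher. Without a filter, the median log2 difference over the 36 members with counts was 2.21, against 0.04 over 21445 genes, and 34 of the 36 lay above 0.

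**Figure D1:**
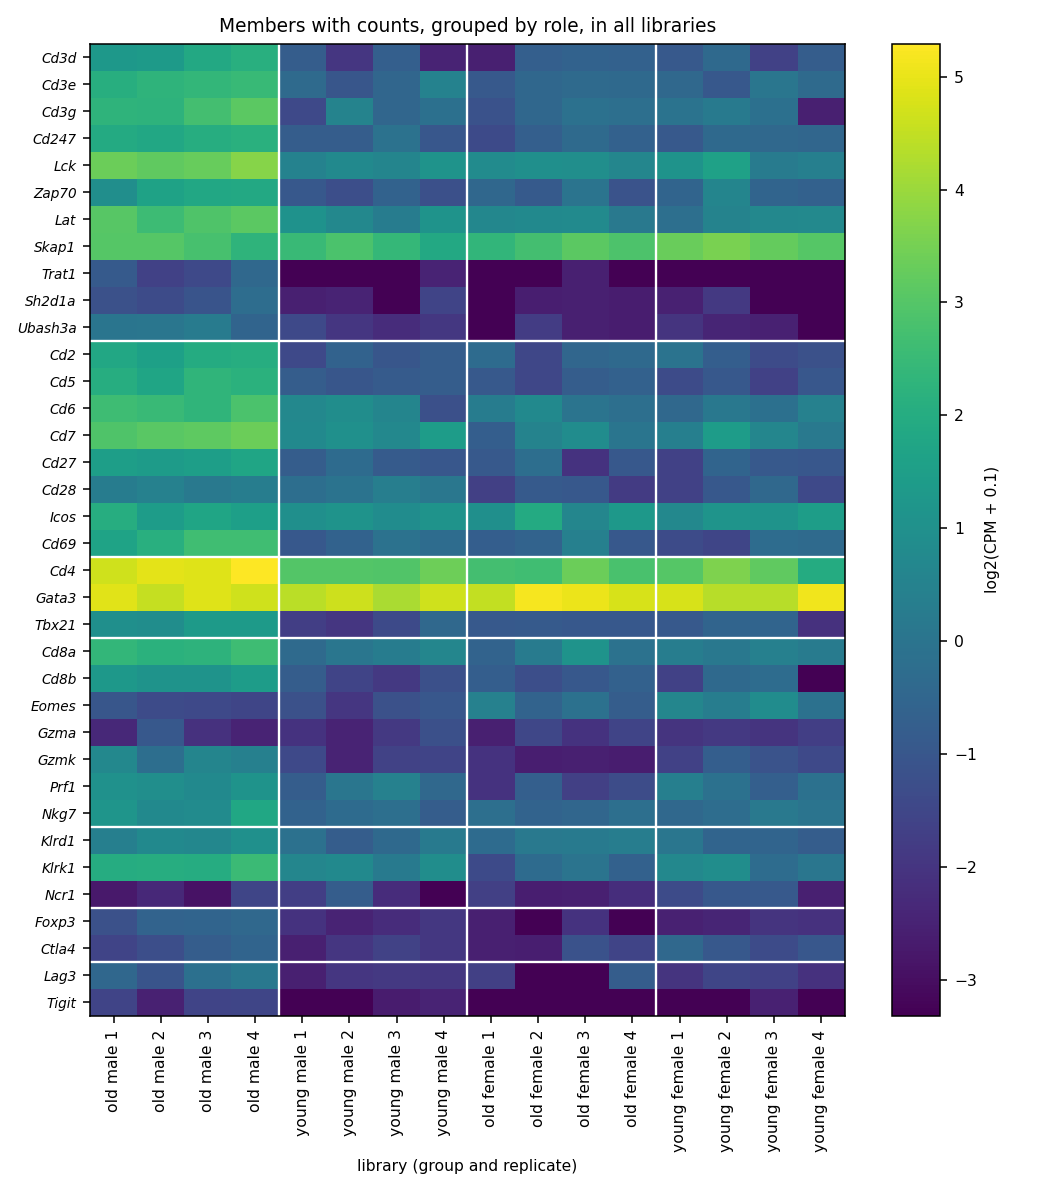
Level of each of the 36 members with counts, as log2 of CPM plus 0.1, by library (columns) and role (rows between white lines). The 4 old male columns are brighter in most rows. Skap1, Gata3, Eomes, Gzma and Ncr1 are rows where they are not, and in the Ctla4 row they are not brighter than the young female columns.

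Among the 11 receptor and signalling genes, 8 were tested, 7 rose in old males and Skap1 did not pass. Trat1, Sh2d1a and Ubash3a were too low for the filter. Cd3d, Cd3e, Cd247 and Zap70 passed it only with the old male libraries present. Levels are given as CPM, counts scaled to library size. Cd3g, a signalling chain of the receptor, had 4.73, 4.69, 6.42 and 8.57 CPM in old males, against 0.275, 1.35, 0.617 and 0.812 CPM in young males. In old females it had 0.353, 0.641, 0.828 and 0.786 CPM, and in young females 0.868, 1.08, 0.798 and 0.0681 CPM. The lowest old male library was thus above every other library, and the other 3 groups overlapped. On the log2 scale the old male difference from young males was 3.01 (SE 0.412, adjusted p = 1.64e-05). Cd3d, beside Cd3g and Cd3e on chromosome 8, gave 3.22 (SE 0.429, adjusted p = 1.22e-05).

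Lck, the kinase that phosphorylates the CD3 chains, had 10.2, 9.06, 9.65 and 13.1 CPM in old males, against 1.31, 1.59, 1.40 and 2.03 CPM in young males. Old females had 1.70, 1.86, 1.79 and 1.45 CPM and young females 2.02, 2.92, 1.09 and 1.23 CPM. Old males stood apart from all others, and the fitted log2 difference from young males was 2.73 (SE 0.232, adjusted p = 1.4e-07). Lat, the membrane adaptor downstream of Zap70, had 8.29, 5.93, 7.54 and 8.57 CPM in old males, against 1.99, 1.51, 1.12 and 2.03 CPM in young males. The Lat groups did not overlap, with a log2 difference of 2.19 (SE 0.215). Zap70, the kinase that docks on phosphorylated chains, and Cd247, the zeta chain, were 7.04-fold and 6.74-fold higher.

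Skap1, an adaptor for integrin activation in T cells, did not follow the other receptor genes. It had 7.95, 8.01, 6.73 and 4.78 CPM in old males, against 5.64, 7.07, 5.28 and 3.57 CPM in young males, and these ranges overlapped. The log2 difference was 0.37 (SE 0.206, adjusted p = 0.148), and 0.70 (adjusted p = 0.00794) when scaled to library totals alone, which moves the median of all genes by 0.32. In young females it was higher still, at 8.10 to 11.8 CPM. Per length, as RPKM, Skap1 was at 5.06 ± 1.10 in old males, where Lck was at 5.68 ± 0.946. Within young females Skap1 was at 6.58 ± 1.15 RPKM and Lck at 0.896 ± 0.436 RPKM (SD, n = 4 each).

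Of the 3 receptor genes under the filter, Ubash3a, a negative regulator of receptor signalling, summed to 97 counts over old males and 10 over young males, a CPM ratio of 5.39 (exact 95% interval 2.81 to 11.6). Sh2d1a, the adaptor SAP, summed to 39 counts in old males and 5 in young males (ratio 4.33, interval 1.71 to 14.1). Trat1, a receptor-associated adaptor, summed to 34 counts in old males and 1 in young males (ratio 18.9, interval 3.17 to 768). These intervals cover counting error only, not the spread between libraries. All 3 were at their highest in old males, where 1 count was worth 0.0244 to 0.0824 CPM.

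**Figure D2:**
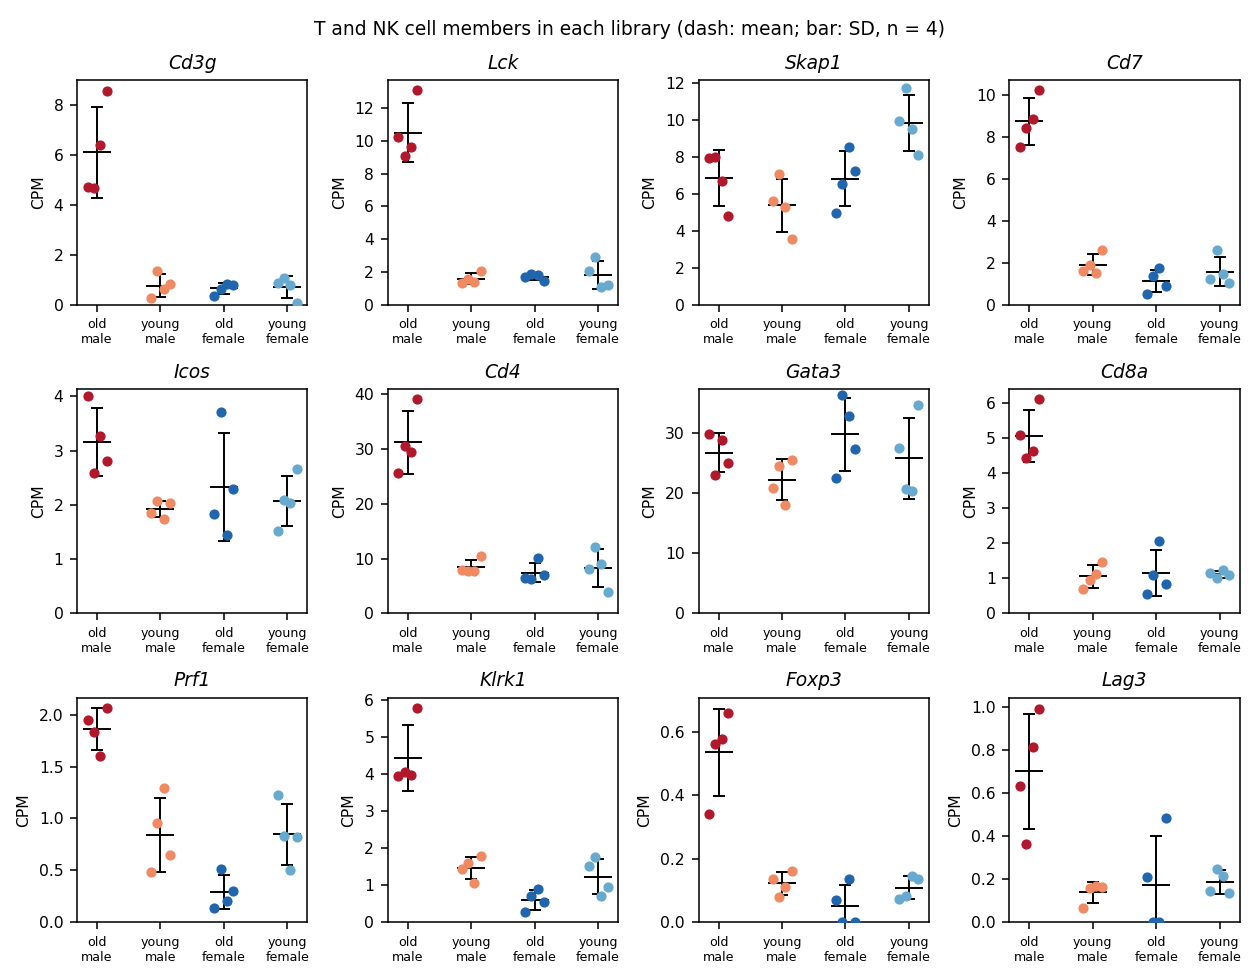
CPM of 12 members in each library by group; dots are libraries, dashes are means and bars are SD (n = 4). Old males stand above the other 3 groups for Cd3g, Lck, Cd7, Cd4, Cd8a, Prf1, Klrk1 and Foxp3, and overlap with them for Skap1, Icos, Gata3 and Lag3.

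All 8 surface and costimulatory genes were tested, and 7 rose in old males. Of these, Cd2, Cd5, Cd27 and Cd69 passed the filter only with the old male libraries present. Cd7, an immunoglobulin-family receptor of T and NK cells, had 7.51, 8.42, 8.87 and 10.2 CPM in old males, against 1.58, 1.91, 1.52 and 2.60 CPM in young males. The groups were apart, with a log2 difference of 2.21 (SE 0.269, adjusted p = 4.75e-06). Cd6, a receptor that tunes T cell activation, had 6.0, 5.66, 4.89 and 7.17 CPM in old males, against 1.51, 1.75, 1.40 and 0.325 CPM in young males. Its neighbour Cd5, which dampens receptor signalling, was 9.02-fold higher in old males and Cd6 was 4.63-fold higher. Cd69, a lectin that appears early on activated cells and is kept by tissue-resident ones, had 3.12, 4.20, 6.11 and 6.18 CPM in old males, against 0.413, 0.556, 0.842 and 0.731 CPM in young males. Its groups were also apart, at a log2 difference of 2.91 (SE 0.349, adjusted p = 4.13e-06).

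The costimulatory receptors Icos and Cd28 showed smaller fold differences. Icos, which supports helper cells, had 4.0, 2.59, 3.26 and 2.80 CPM in old males, against 1.86, 2.07, 1.74 and 2.03 CPM in young males. These did not overlap, but the log2 difference of 0.72 (SE 0.25, adjusted p = 0.0244) did not pass with 1 library left out: it was 0.70 without young male 1 (adjusted p = 0.053), 0.67 without young male 3 (adjusted p = 0.0672) and 0.59 without old male 1 (adjusted p = 0.0738). Cd28, the main costimulatory receptor, had 1.12, 1.27, 1.02 and 1.15 CPM in old males, against 0.757, 0.874, 1.18 and 0.975 CPM in young males. Its groups overlapped, with a log2 difference of 0.26 (SE 0.27, adjusted p = 0.444). Icos, Cd28 and Ctla4 are neighbours on chromosome 9, with no protein-coding gene between them in the RefSeq order.

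Of the 3 helper genes, Cd4 and Tbx21 rose in old males and Gata3 did not pass. Tbx21 passed the filter only with the old male libraries present. Cd4 had 25.6, 30.5, 29.4 and 39.1 CPM in old males, against 7.91, 7.79, 7.69 and 10.5 CPM in young males. Old females had 6.5, 6.22, 10.1 and 6.95 CPM, and young females 8.10, 12.2, 8.92 and 3.88 CPM. Old males lay above all other libraries, with a log2 difference from young males of 1.88 (SE 0.237, adjusted p = 7.05e-06). Per length, Cd4 had the highest level of any member in old males, at 19.998 ± 3.74 RPKM (SD, n = 4). A list of macrophage and monocyte genes also rose in old males, as given with the other cell type lists, and its part in the Cd4 difference was not tested.

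Tbx21, the transcription factor T-bet of type 1 helper, cytotoxic and NK cells, had 1.85, 1.78, 2.51 and 2.47 CPM in old males, against 0.206, 0.159, 0.281 and 0.650 CPM in young males. These were apart, at a log2 difference of 2.73 (SE 0.352, adjusted p = 8.69e-06). Gata3, the factor of type 2 helper cells that is also expressed in collecting duct, had 29.9, 23.0, 28.8 and 25.1 CPM in old males, against 20.8, 24.5, 18.1 and 25.4 CPM in young males. Its groups overlapped in every comparison, with a log2 difference in males of 0.27 (SE 0.174, adjusted p = 0.21). Scaled to library totals alone it was 0.59 (adjusted p = 0.00693). Of 10 distal nephron and collecting duct genes, 2 rose and none fell in old against young males, beside 25.3% of all tested genes higher and 24.6% lower. Under that scaling 5 rose, as did 7849 of all 14390 tested genes.

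Of the 8 cytotoxic genes, 6 were tested, 5 rose in old males and Eomes did not pass. Cd8b and Gzmk passed the filter only with the old male libraries present. Cd8a, which forms the CD8 coreceptor with Cd8b, had 5.07, 4.42, 4.62 and 6.10 CPM in old males, against 0.688, 0.954, 1.12 and 1.46 CPM in young males. The groups were apart, with log2 differences of 2.24 for Cd8a (SE 0.279, adjusted p = 6.14e-06) and 2.87 for Cd8b (SE 0.453, adjusted p = 6.52e-05). Nkg7, a protein of cytotoxic granules, had 2.15, 1.61, 1.66 and 3.38 CPM in old males, against 0.550, 0.715, 0.786 and 0.487 CPM in young males. Its log2 difference was 1.71 (SE 0.274).

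Prf1, the pore-forming perforin, had 1.95, 1.83, 1.60 and 2.06 CPM in old males, against 0.481, 0.954, 1.29 and 0.650 CPM in young males. Old females had 0.141, 0.513, 0.207 and 0.302 CPM, and young females 1.23, 0.834, 0.508 and 0.817 CPM. The male groups did not overlap, but at 2.13-fold the difference was smaller than that of Cd8a (log2 1.09, SE 0.304, adjusted p = 0.00673). It did not pass among the DS libraries alone (log2 1.25, adjusted p = 0.0847) or with the prefix as a covariate (1.12, adjusted p = 0.0525). Gzmk, a granzyme of memory-type T cells in humans, was 5.63-fold higher in old males. Gzma beside it on chromosome 2 summed to 24 counts in old males, 17 of them in old male 2, and 10 in young males. The CPM ratio was 1.33 (interval 0.615 to 3.12, counting error only), so no difference was detectable at this depth. Gzmb had no count in any library, which allows up to 0.0291 CPM over the old males and 0.0524 CPM over the young males. Counts of the granzyme and killer-cell receptor families are uncertain, since reads could be split between related copies.

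Eomes, a T-box factor of cytotoxic and NK cells, was the cytotoxic member that went another way. It had 0.390, 0.293, 0.272 and 0.247 CPM in old males, against 0.344, 0.159, 0.337 and 0.406 CPM in young males. Old females had 1.27, 0.577, 0.828 and 0.484 CPM and young females 1.45, 1.17, 1.74 and 0.817 CPM. The male groups overlapped (log2 -0.06, SE 0.422, adjusted p = 0.925), and both lay below both female groups.

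Of the 4 NK receptor genes, Klrk1 and Klrd1 were tested and both rose in old males. Klrk1, the activating receptor NKG2D of NK and CD8 T cells, had 3.95, 4.05, 3.97 and 5.77 CPM in old males, against 1.44, 1.59, 1.07 and 1.79 CPM in young males. Old females had 0.283, 0.705, 0.897 and 0.544 CPM, and young females 1.52, 1.75, 0.725 and 0.953 CPM. The male groups were apart, with a log2 difference of 1.59 (SE 0.264, adjusted p = 0.000105). Klrd1, the CD94 chain that pairs with NKG2 receptors, had 1.22, 1.61, 1.49 and 1.90 CPM in old males, against 0.825, 0.477, 0.674 and 1.06 CPM in young males, a log2 difference of 1.02 (SE 0.259, adjusted p = 0.00351). Ncr1, the receptor NKp46 that is largely restricted to NK cells, summed to 9 counts in old males and 11 in young males (CPM ratio 0.455, interval 0.166 to 1.21). Klrb1 had no count in any library.

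Regulatory and checkpoint genes were too low for the test. Foxp3 had 0.341, 0.561, 0.577 and 0.660 CPM in old males, against 0.138, 0.0795, 0.112 and 0.162 CPM in young males. These did not overlap, and the sums of 55 and 7 counts gave a CPM ratio of 4.37 (interval 1.98 to 11.4). Ctla4, an inhibitory receptor that regulatory T cells carry, had 0.244, 0.317, 0.476 and 0.577 CPM in old males, against 0.0688, 0.159, 0.225 and 0.162 CPM in young males. Its groups were also apart, with sums of 39 and 9 counts and a ratio of 2.41 (interval 1.15 to 5.65). In the fit without a filter, over 21445 genes, Foxp3 passed at a log2 difference of 2.06 (SE 0.529, adjusted p = 0.00446), while Ctla4 did not at 1.28 (SE 0.537, adjusted p = 0.0741).

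Lag3, a checkpoint receptor that binds MHC class II and lies beside Cd4 on chromosome 4, had 0.634, 0.366, 0.815 and 0.989 CPM in old males, against 0.0688, 0.159, 0.168 and 0.162 CPM in young males. The male groups were apart, with sums of 64 and 8 counts, a ratio of 4.44 (interval 2.13 to 10.7) and, without a filter, an adjusted p of 0.0128. Tigit, a checkpoint receptor for nectin-family ligands, had 0.244, 0.0732, 0.238 and 0.247 CPM in old males, against 0, 0, 0.0561 and 0.0812 CPM in young males. Its male groups overlapped, with 18 and 2 counts (ratio 5.0, interval 1.2 to 44.4; adjusted p = 0.0671 without a filter). Pdcd1, which encodes PD-1, had no count in any library, so its level relative to the receptor genes could not be given.

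Single members of the helper, cytotoxic and regulatory roles were compared as ratios within a library. Cd4 is also carried by rat monocytes and macrophages, whose tested markers rose in old males as well. The ratios are thus of genes and not of T cell subsets, and the part of those cells was not tested. The log2 ratio of Cd8a to Cd4, each as CPM plus 0.1, was -2.59 ± 0.192 in old males and -2.92 ± 0.299 in young males (SD, n = 4 each). The difference of 0.33 did not pass a two-sided exact permutation test (p = 0.0571, adjusted p = 0.114 over 4 ratio tests; the smallest p possible is 0.0286). Without young male 3 it was 0.41 and reached the smallest p, 0.0286 in the exact test. Against old females, at -2.71 ± 0.489, the difference was 0.12 (exact permutation p = 0.686). With a pseudocount of 0.5 the 2 differences were 0.03 (exact permutation p = 0.8286) and -0.18 (exact permutation p = 0.314), so the size of the first and the direction of the second depend on the pseudocount.

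The log2 ratio of Foxp3 to Cd4 was -5.63 ± 0.186 in old males and -5.27 ± 0.166 in young males (SD, n = 4 each). The difference of -0.37 did not pass the exact permutation test (p = 0.0571, adjusted p = 0.114). Against old females, at -5.70 ± 0.422, the difference was 0.07 (exact permutation p = 0.743). With a pseudocount of 0.5, the Foxp3 to Cd4 differences became -1.09 and -1.10, each at the smallest exact p of 0.0286. Foxp3 lay near or under that pseudocount in most libraries. The size of the first difference, the direction of the second and the outcome of both tests thus depend on the pseudocount.

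**Figure D3:**
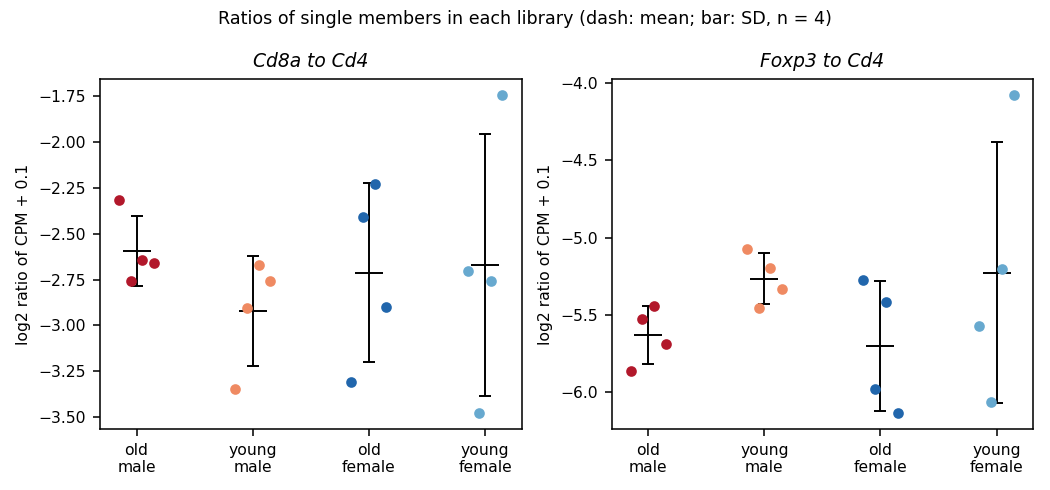
Log2 ratio of Cd8a to Cd4 (left) and of Foxp3 to Cd4 (right), from CPM plus 0.1, in each library by group; dashes are means and bars are SD (n = 4). Old and young males sit close together in both panels, with mean differences of 0.33 and -0.37, and the female libraries spread more widely.

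No member was called higher with age in females. In old against young females none was higher and 2 were lower in edgeR's test, Gzmk and Prf1, beside 2.54% of all genes higher and 3.17% lower; DESeq2 called none higher either, and 5 members had an unadjusted p under 0.05. No member was above, and only Gzmk below, in every old female library against every young female one, where 5.61% of all genes were above and 5.46% below. Gzmk had 0.141, 0.0641, 0.0690 and 0.0604 CPM in old females, against 0.217, 0.5, 0.363 and 0.272 CPM in young females. These did not overlap, but rest on 1 or 2 counts per old female library (log2 -1.92, SE 0.545, adjusted p = 0.049). For Prf1 the female ranges overlapped slightly, with a log2 difference of -1.5 (SE 0.411, adjusted p = 0.0423). Both calls were lost in most alternatives that tested them, including with 1 female library left out: at least 1 of the 2 was lost in each of the 8 such fits. Klrk1 gave -1.0 (SE 0.344, adjusted p = 0.103), and Cd3g, Lck, Cd4 and Cd8a gave values between -0.14 and 0.02.

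Ctla4 was the regulatory member with the highest female level, at 0.0707, 0.0641, 0.345 and 0.242 CPM in old females, against 0.651, 0.417, 0.290 and 0.409 CPM in young females. Its sums were 11 and 24 counts (ratio 0.409, interval 0.181 to 0.868), and the groups overlapped. Foxp3 summed to 3 counts in old females and 6 in young females, with no detectable difference at this depth. The rest of the low members gave female sums of 0 to 16 counts.

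**Figure D4:**
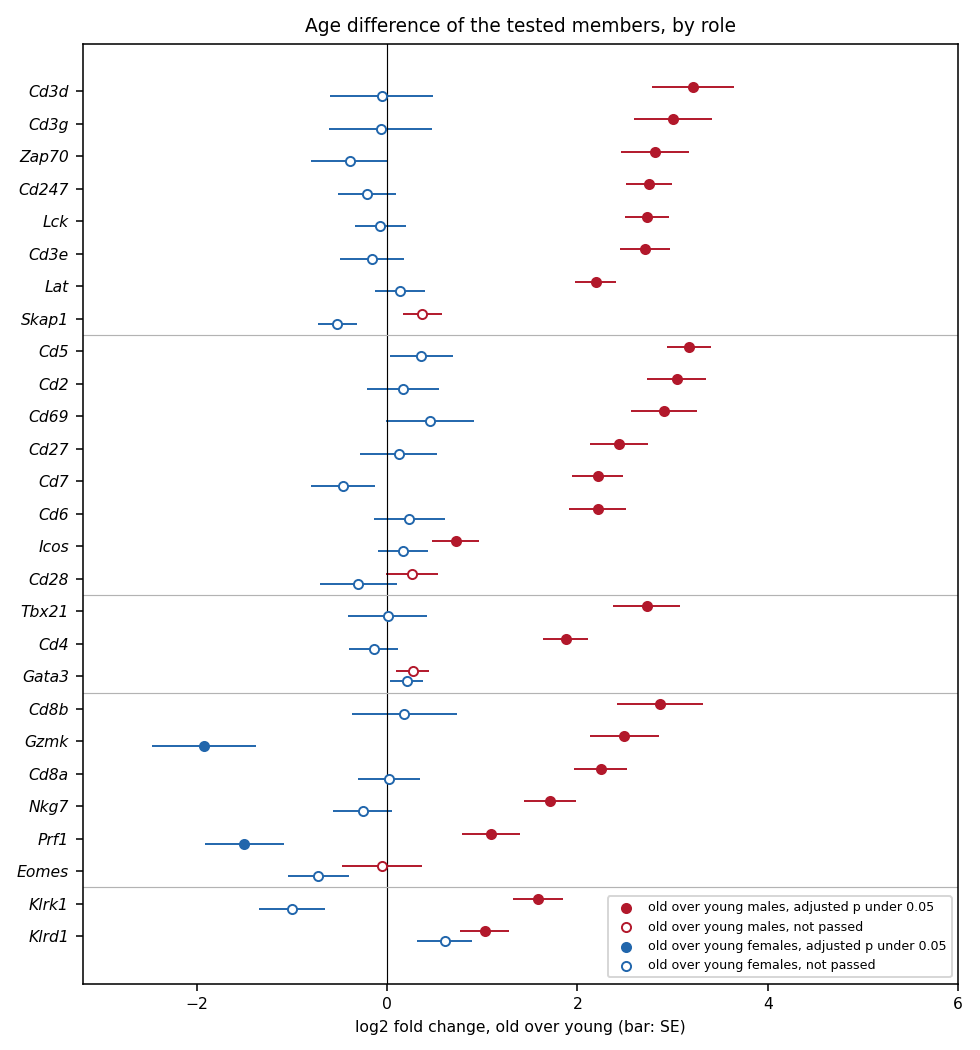
Log2 fold change with age, old over young, of the 27 tested members in males (red) and females (blue), grouped by role from receptor genes at the top to NK receptors; bars are SE and filled dots have an adjusted p under 0.05. Red dots run from -0.06 for Eomes to 3.22 for Cd3d, while blue dots run from -1.92 for Gzmk to 0.60 for Klrd1.

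The difference of the age changes between the sexes was tested directly. The age change in males exceeded that in females for 22 tested members and fell below it for none, while 19.4% of all tested genes had a larger change in males and 19.3% a smaller one. No member was lower with DESeq2 either, and all 22 with an unadjusted p under 0.05 were in the male direction. Here too, 11 of the 27 tested members passed the filter only with the old male libraries present. Of the 16 that pass without old males, 11 were among the 22. The log2 differences between the sexes' changes ran up to 4.42 for Gzmk (SE 0.656, adjusted p = 7.58e-05). They were 3.07 for Cd3g (SE 0.696, adjusted p = 0.00239), 2.02 for Cd4 (SE 0.347, adjusted p = 0.000264), 2.22 for Cd8a (SE 0.433, adjusted p = 0.000755) and 2.59 for Klrk1 (SE 0.434, adjusted p = 0.000215). Klrd1, Eomes, Gata3, Cd28 and Icos did not pass. Skap1 passed at 0.89 (SE 0.289, adjusted p = 0.022), but gave 0.13 among the DS libraries alone.

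Old males were set against old females as the second route to the same libraries; since both comparisons share the old males, they are not independent. Of the tested members, 23 were higher and Eomes was lower in old males (log2 -1.35, SE 0.356, adjusted p = 0.00474; -1.38, SE 0.814, adjusted p = 0.236 among the DS libraries alone), beside 25.5% of all genes higher and 23.8% lower. The groups did not overlap in any of these 24, where 23.8% of all genes were apart upward and 20.8% downward. The filter bears on these counts too. Of the 16 members that pass it without old males, 12 were higher and 1 was lower. Lck was 6.12-fold higher, Cd8a 4.37-fold, Cd4 4.18-fold and Klrk1 7.13-fold. Prf1 was 6.12-fold higher (log2 2.61, SE 0.359), where its old female libraries were at 0.141 to 0.513 CPM. Cd28 was called here (log2 1.85, SE 0.321, adjusted p = 0.000154), with 1.02 to 1.27 CPM in old males and 0.181 to 0.449 CPM in old females. Icos was not, with 0.43 (SE 0.242, adjusted p = 0.152). Foxp3 had 55 counts in old males and 3 in old females (ratio 10.8, interval 3.51 to 54.0), and Tigit had 18 in old males and 0 in old females, a ratio with an exact 95% lower limit of 2.59.

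Among young animals 3 members differed by sex. Cd28 was higher in young males, at 0.757 to 1.18 CPM against 0.217 to 0.653 CPM in young females (log2 1.28, SE 0.338, adjusted p = 0.00812), beside 16% of all genes higher. Eomes (log2 -2.02, SE 0.37, adjusted p = 0.000547) and Skap1 (log2 -0.86, SE 0.208, adjusted p = 0.00452) were lower, beside 15.7% of all genes lower. In all 3 the young groups did not overlap, a separation that 16.4% of all genes showed upward and 14.7% downward. Cd3g, Lck, Cd4 and Cd8a gave differences between -0.19 and 0.11. A score from inner medulla and urothelium genes, the mean log2 CPM of the list, ran from 2.53 to 3.40 in young males and from 4.06 to 5.56 in young females. With it as a covariate Cd28 gave 0.91 (adjusted p = 0.331) and Skap1 -0.76 (adjusted p = 0.147), while Eomes still passed. Ctla4 summed to 9 counts in young males and 24 in young females (ratio 0.356, interval 0.145 to 0.792).

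Per length, the order of levels in old males was led by Cd4 at 19.998 ± 3.74 RPKM, then Gata3 at 11.2 ± 1.24, Cd3g at 11.1 ± 3.36, Cd7 at 9.69 ± 1.33 and Lat at 7.15 ± 1.04 RPKM (SD, n = 4 each). Gata3, Cd3g and Cd7 did not differ beyond their spread. In young males the order was led by Gata3 at 7.47 ± 1.18, Cd4 at 4.35 ± 0.785 and Skap1 at 3.16 ± 0.773 RPKM, with Cd7 at 1.68 ± 0.463 RPKM and Cd3g at 1.09 ± 0.616 RPKM. RPKM as deposited is scaled to library totals, and not by the factors behind CPM and the tests, so RPKM is used for the order of genes within a group only. Foxp3 was at 0.161 ± 0.043 RPKM in old males, with Ctla4 at 0.241 ± 0.091 and Lag3 at 0.421 ± 0.160 RPKM.

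Other T and NK cell genes were a list of 35 symbols, of which 32 were in the table and 27 were tested. In old against young males 21 were higher and 1 lower, beside 25.3% of all tested genes higher and 24.6% lower. The lower one was Tox, a factor of T cell development and exhaustion (log2 -0.35, SE 0.118, adjusted p = 0.0214), with 11.6 to 14.8 CPM in old males and 15.2 to 19.7 CPM in young males; scaled to library totals it gave -0.02 (adjusted p = 0.894). Prkcq, a kinase of receptor signalling, gave 0.12 (adjusted p = 0.707). Among the other list members, Ccr7, a homing receptor to lymph nodes, gave 3.40, and Cxcr6, a chemokine receptor of resident T cells, gave 2.57. Txk overlapped between the male groups, with 1.37 to 2.04 CPM in old males and 1.46 to 2.13 CPM in young males. In old against young females 1 of 27 was higher, Tox (log2 0.56, adjusted p = 0.032), and none was lower, beside 2.54% of all genes higher and 3.17% lower.

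Markers of other leukocytes moved in the same libraries. The calls in old against young males given here stand beside 25.3% of all tested genes higher and 24.6% lower. The members without Cd4, Gata3 and Skap1 summed to 86.0 to 118 CPM in old males, 19.3 to 23.5 CPM in young males, 16.1 to 21.5 CPM in old females and 18.7 to 25.8 CPM in young females. B and plasma cell genes summed to 161 to 344 CPM in old males, 12.9 to 18.3 CPM in young males, 19.6 to 36.0 CPM in old females and 13.5 to 17.9 CPM in young females, and 8 of 8 tested rose in old against young males. Macrophage and monocyte genes summed to 558 to 967 CPM in old males, 207 to 243 CPM in young males, 146 to 245 CPM in old females and 176 to 272 CPM in young females, and 13 of 13 rose. Of 12 pan-leukocyte genes, 11 rose and 1, Cytip, fell. Of 9 inner medulla and urothelium genes, 4 rose and 2 fell, and the 1 neutrophil gene tested rose. Of 9 endothelial genes 4 were lower and none higher. Scaling to library totals alone, which moves the median of all genes by 0.32 on the log2 scale, turned this to none lower and 4 higher. Under that scaling 7849 of all 14390 tested genes were higher and 1329 lower. B cell and macrophage counts were the same under it. In the lists other than the members, no marker found in the table was at 0 in all libraries. In old against young females, 5 of the 12 pan-leukocyte genes fell and none rose, beside 3.17% of all tested genes lower. Of the 8 B and plasma cell genes 1 fell and none rose, and none of the 13 macrophage and monocyte genes was called. The part of these cell types in the members' differences was not tested.

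**Figure D5:**
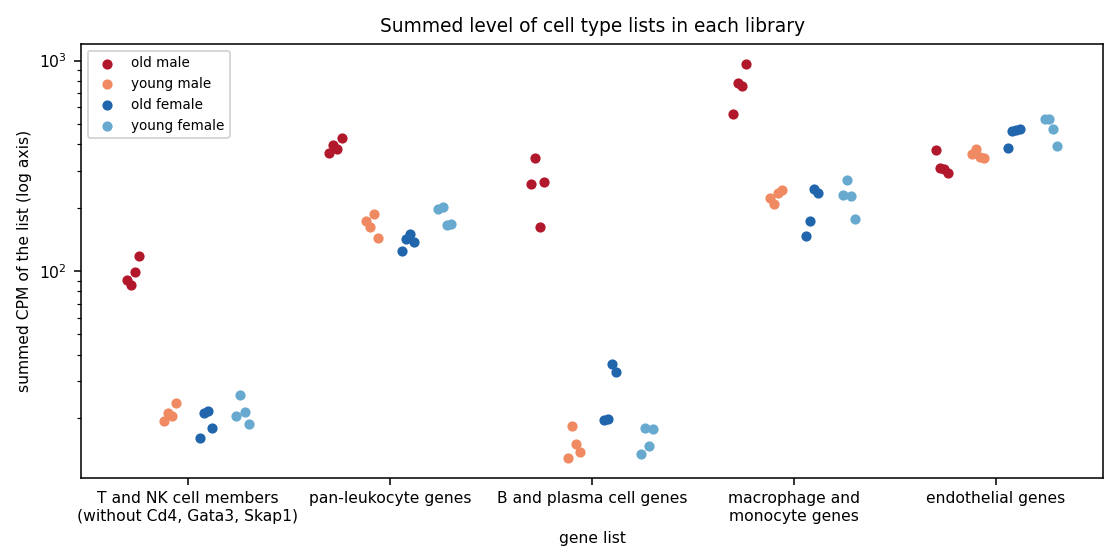
Summed CPM of each gene list (log axis) in every library, by group. T and NK cell members, pan-leukocyte, B and plasma cell and macrophage and monocyte sums are highest in the 4 old male libraries, while endothelial sums are not (on this scaling).

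Library 4 of the old males had the highest CPM in 19 of the 23 members called higher against young males. It is the only old male with the DS prefix and the shallowest old male library, with 10827485 counts, where the 4 old males reached up to 35957516 counts, young males held 13416132 to 20274749, old females 14269100 to 17048319 and young females 11570788 to 14736236 counts. Among the DS libraries alone it stands for the old males, and its spread is taken from the other groups. A member can pass the filter there by being high in this library alone. Log2 differences from young males there were 3.5 for Cd3g, 3.05 for Lck and 2.20 for Cd4. Foxp3, which is under the filter with all 16 libraries, gave 2.34. Leaving out each library in turn left 22 to 25 members higher in old than in young males. The authors' deposited tables hold genes past a fold and a false discovery threshold. They list 23 members among 1974 genes between old and young males, and 23 among 2019 between old males and old females. These sets rest on the same libraries and are not those called here. Both hold Ubash3a, which was under the filter here. Icos is absent from the first, and Klrd1 and Eomes are absent from the second. Between young males and young females the authors list 1 member (Eomes) among 1002 genes, and between old and young females 0 among 291.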

How the data were processed

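RNA from kidney cortex of rats was sequenced in 16 libraries, 4 for each combination of age and sex, from stranded TruSeq mRNA libraries per the labels' protocols. The authors deposited whole-number counts per gene for 32623 genes, and RPKM values for the same libraries, per the file headers. The authors also deposited pairwise lists with log2 fold changes, p-values and FDR values, per the file headers. Rnor_6.0 and edgeR 3.8.6 are named in the submitters' processing notes without a role; which aligner and counting program were used, and whether strand was used in counting, was not given in the sources used here. Overlapping and antisense genes can thus not be told apart.

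Counts were fitted here with edgeR 4.0.16 in R 4.3.3 (TMM factors, filterByExpr by group, quasi-likelihood test) with 1 mean per group over all 16 libraries. The filter kept 14390 genes, which hold 99.93% of counts. Contrasts were old against young within each sex, males against females within each age, and the difference of the age changes. P-values were adjusted over all genes tested by Benjamini-Hochberg at 0.05. CPM are scaled by the TMM factors. Members under the filter are given as summed counts with exact 95% intervals. Ratios of single genes used CPM plus 0.1 and two-sided exact permutation tests; the planned ratio with Pdcd1 could not be formed at 0 counts, so 4 tests were adjusted together. Replicates differed by more than sampling noise (chi-square per degree of freedom 6.28 to 49.5), and no library was merged. The fit was tested on simulated counts. The naming rule took up to 4 members of each role, and up to 3 genes of each other list, with the highest mean CPM over all libraries. Of the genes it took from the other lists, values are given for Tox and Prkcq only. Genes outside that rule (Cd3d, Cd3e, Cd247, Zap70, Cd2, Cd5, Cd27, Cd28, Eomes, Gzmk, Gzma, the members under the filter, Ccr7, Cxcr6 and Txk) were named after their values were seen. The members and lists were chosen with earlier results of these data known. Y-linked genes (Eif2s3y and Kdm5d) had counts in every male library and none in any female library. Alternatives were RLE factors, library totals, DESeq2 1.42.0, other filters, only the groups compared, the replicate number, the prefix or the inner medulla score in the fit, DS libraries alone and leaving out each library. A gene that the naming rule would take is not reported here.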

Additional observations from a re-analysis of the deposited data

Results flagged for a closer look

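Among 108 groups of 4 libraries (27 tested members in 4 groups), 5 had a library far from the other 3 in Dixon's test, where chance flags about 5% of groups. Cd3d was low in old female 1, at 0.0707 CPM, with 0.513 to 0.552 CPM in the others. Gzmk was high in the same library, at 0.141 CPM, with 0.0604 to 0.0690 CPM in the others, but this is 2 counts against 1 in each. Zap70 was high in young female 2, at 1.42 CPM, with 0.545 to 0.580 CPM in the others. Cd4 was high in young male 4, at 10.5 CPM, with 7.69 to 7.91 CPM in the others. Klrk1 was high in old male 4, at 5.77 CPM, with 3.95 to 4.05 CPM in the others.

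For 22 members the age change differed between the sexes in the test of that difference, always larger in males, beside 19.4% of all genes. Of the 16 members that pass the filter without old males, 11 were among these. The log2 differences (the change with age in males less the change in females) for receptor and signalling genes were 3.27 for Cd3d, 2.87 for Cd3e, 3.07 for Cd3g, 2.96 for Cd247, 2.80 for Lck, 3.21 for Zap70, 2.05 for Lat and 0.89 for Skap1. Among surface genes they were 2.88 for Cd2, 2.81 for Cd5, 1.98 for Cd6, 2.68 for Cd7, 2.32 for Cd27 and 2.46 for Cd69. Among helper genes they were 2.02 for Cd4 and 2.72 for Tbx21. Among cytotoxic genes they were 2.22 for Cd8a, 2.69 for Cd8b, 4.42 for Gzmk, 2.59 for Prf1 and 1.97 for Nkg7. Klrk1 gave 2.59. For Gzmk and Prf1 both the higher values in old males and the lower values in old females enter the difference. The female calls of both were lost in most alternatives that tested them, and Gzmk had 1 or 2 counts per old female library.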

How the results depend on the processing

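No call changed direction. The counts of members higher in old against young males (21 to 28), in old males against old females (22 to 28) and in the age by sex test (20 to 24) stayed within 1.5 times those reported under every alternative. The 2 members lower in old females became 1 with DESeq2 and with a mean CPM filter, 0 with no filter, with the replicate block, with the inner medulla score, with the prefix and with DS libraries alone, and 0 to 1 with a library left out. With only the compared groups it was also 0, where Gzmk and Prf1 were under the filter and so not tested; the mean CPM filter likewise left out Gzmk. The 1 member lower in old males against old females, Eomes, became 0 with DS libraries alone (-1.38, adjusted p = 0.236, about the same fold), and 0 with only the compared groups, where it was under the filter and not tested. With the inner medulla score, young males against young females gave 0 higher and 1 lower. Library totals moved the median of all genes by 0.32 in old against young males and 0.21 in old males against old females, with 25 and 24 members higher; Skap1 and Gata3 were the added calls in males. Leave-one-out ranges were 22 to 25 higher in both of these, 22 to 24 for age by sex, 0.18 to 0.41 and -0.08 to 0.28 for the Cd8a to Cd4 ratio differences, and -0.43 to -0.29 and -0.07 to 0.21 for Foxp3 to Cd4. With a pseudocount of 0.5 the Foxp3 to Cd4 differences were -1.09 and -1.10, and the Cd8a to Cd4 differences 0.03 and -0.18. Klrd1 in old males against old females was lost in 6 of the 8 fits with a library left out. Libraries with the same number did not pair (correlations of deviations -0.131 to 0.204); the replicate block left 23, 23 and 22 members higher and kept 72 of 74 gene calls. The causes were not tested. At 0.0244 to 0.0834 CPM per count, differences of Gzma, Ncr1, Tigit and Ctla4 were limited by depth.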
